A study of Caenorhabditis elegans with 2 samples.

Results

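The histone genes of Caenorhabditis elegans were described in a map of CEH-39 binding to the genome. They were taken as every protein-coding gene record of the WBcel235 annotation (Ensembl release 115) whose symbol starts with his- or hil- and a number. There were 80 such records, 72 named his- and 8 named hil-, of 19973 protein-coding records on the nuclear chromosomes. Ensembl gives these 80 records only 58 symbols, and 36 records share a symbol with another, so records are named here by the RefSeq symbol at the same position, which was distinct for each of the 80. Histones package DNA: H2A, H2B, H3 and H4 form the nucleosome core and H1 binds the linker DNA. The core genes of animals are typically short, present in many near-identical copies, arranged in clusters and used mostly in S phase, while variant histones such as H3.3 are made throughout the cell cycle. In these records, 64 of 80 had 1 coding exon, and 62 of 80 stood in a divergent couple, meaning neighbouring histone genes whose starts faced each other at most 1000 bp apart and so shared the sequence between them.

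The data were chromatin immunoprecipitation and sequencing (ChIP-seq) of CEH-39, a ONECUT homeobox protein that acts as an X signal element in sex determination. The single group was eGFP-CEH-39 ChIP from strain OP169, with the genotype unc-119(ed3) III; wgIs169, in which an inserted transgene carries the tagged factor. The material was whole embryos of mixed stage and mixed sex, in 2 biological replicates. No other genotype was compared, so the histone genes were set against the other protein-coding genes of the same map, and binding in 1 cell type cannot be told apart from binding in all. The values are peak positions with the authors' signal value, whose scale is not given, in a list of 1244 peaks kept by the irreproducible discovery rate (IDR), a longer relaxed list of both replicates pooled, and a relaxed list of each replicate. Read counts were not used here, so the depth is unknown, and intervals are exact 95% binomial intervals that cover counting error only and treat neighbouring records as independent, which those sharing a peak are not.

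CEH-39 peaks lay at 15 of the 80 histone records, or 18.8% (interval 10.9 to 29.0%), against 6.46% of all protein-coding records. A record was called bound when the summit of an IDR peak fell between 1000 bp upstream and 200 bp downstream of one of its starts. The strongest 1244 peaks of replicate 1 alone placed a summit at 16 of 80 histone records against 6.43% of all records, and those of replicate 2 alone at 15 of 80 against 5.58%. Of the 15 IDR-bound records, 15 were bound in replicate 1 and 13 in replicate 2 by that count, and the missing records were his-15 and his-1. The relaxed pooled list had a summit at 38 of 80 histone records, or 47.5%, against 43.7% of all protein-coding records, a share near the background. By the histone they encode, 5 of 16 H4 records, 3 of 17 H2A records, 3 of 17 H2B records, 3 of 21 H3 records and 1 of 9 H1 records were bound. The 15 records rested on 10 distinct peaks, because 5 peaks each lay between the starts of a divergent couple and counted for both genes. Given only to the record with the nearest start, the peaks fell at 8 of 80 histone records, or 10%, against 4.56% of all records.

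The strongest histone peak stood at an isolated divergent pair of an H4 gene and an H2A gene. The gene his-67 (WBGene00001941, H4) and the gene his-68 (WBGene00001942, H2A) face away from each other with 368 bp between their starts on chromosome I. The IDR peak between them, at chrI:9988795-9989135 in ce11, had a signal value of 516 and ranked 2 of 1244. It ranked 9 in replicate 1, with a signal of 347, and 2 in replicate 2, with a signal of 175. Its summit lay 16.5 bp from the midpoint, 201 bp upstream of his-67 and 168 bp upstream of his-68. No stretch of 36 bases (a 36-base word) between these starts occurs anywhere else in the genome.

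The other 4 couple peaks belonged to gene clusters, here 3 or more histone records with at most 5 kb between neighbours. The peak of his-31 (H4) and his-32 (H3), at chrIV:8334024-8334291, had a signal of 357 and ranked 20 in the IDR list. It ranked 36 in replicate 1 (signal 256) and 25 in replicate 2 (signal 86.0). The peak of his-4 (H2B) and his-3 (H2A), at chrV:16040541-16040736, had a signal of 184 and ranked 185, with ranks of 479 in replicate 1 (signal 100.04) and 27 in replicate 2 (signal 82.8). Both replicates thus placed it well inside their strongest peaks, but at different heights.

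In 1 small cluster on chromosome IV each couple had its own peak. The peak of his-60 (H4) and his-59 (H3), at chrIV:7488034-7488203, had a signal of 161 and ranked 255, with ranks of 396 in replicate 1 (signal 109) and 89 in replicate 2 (signal 53.1). The peak of his-61 (H2A) and his-62 (H2B), at chrIV:7486381-7486484, had a signal of 149 and ranked 301, with ranks of 350 in replicate 1 (signal 114) and 231 in replicate 2 (signal 39.7). All 4 genes of that cluster were therefore bound. Across the 5 couple peaks the summit lay between 3.5 and 43 bp from the midpoint of the facing starts, and summits in the lists of replicate 1 and replicate 2 lay within 6 and 16 bp of the pooled one. These peaks were also narrow: 6 of the 10 histone peaks were under 350 bp wide, while 87.7% of all IDR peaks were exactly 350 bp.

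The summit sequences below were chosen because they hold GTGTCC, a word that is rare at the map's other summits. The summits of his-72, his-15 and his-1 had neither GTGTCC nor CCGAAT within 50 bp and are not printed. The summit of his-67/his-68, which had GTGTCC, is not printed either. Each run is read from the WBcel235 genome (ce11), plus strand, 50 bases to each side of the summit, or for his-24 to the base before its annotated start. Capitals mark GTGTCC and CCGAAT or their reverse complements GGACAC and ATTCGG, words picked after these sequences were seen.
his-31/his-32, chrIV:8334117-8334217: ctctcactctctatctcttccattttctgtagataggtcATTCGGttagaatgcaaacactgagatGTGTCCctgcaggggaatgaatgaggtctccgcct
his-4/his-3, chrV:16040576-16040676: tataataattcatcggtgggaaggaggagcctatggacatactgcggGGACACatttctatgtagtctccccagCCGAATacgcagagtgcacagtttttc
his-60/his-59, chrIV:7488067-7488167: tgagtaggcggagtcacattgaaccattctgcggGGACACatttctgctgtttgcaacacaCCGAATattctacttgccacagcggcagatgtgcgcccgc
his-61/his-62, chrIV:7486374-7486474: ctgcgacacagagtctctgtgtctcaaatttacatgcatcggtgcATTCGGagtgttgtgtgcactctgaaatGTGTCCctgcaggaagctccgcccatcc
his-37, chrV:9546953-9547053: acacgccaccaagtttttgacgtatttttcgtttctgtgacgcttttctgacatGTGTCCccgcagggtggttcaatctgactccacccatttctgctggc
his-24, chrX:14490020-14490093: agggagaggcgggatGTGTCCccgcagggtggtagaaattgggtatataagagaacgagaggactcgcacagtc
For comparison, the middle 101 bases of a couple made of repeated sequence, and of a couple of unique sequence, were read from the same strand. Neither couple had an IDR summit between its starts, although his-15 and his-1 each counted as bound through a remote peak in the wider window. The couples his-63/his-64 and his-6/his-5, of mostly unique sequence and not printed, held GTGTCC and also had no IDR summit between their starts.
his-16/his-15, chrII:13818207-13818307: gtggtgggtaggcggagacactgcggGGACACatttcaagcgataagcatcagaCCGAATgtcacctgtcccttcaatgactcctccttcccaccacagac
his-2/his-1, chrV:16042351-16042451: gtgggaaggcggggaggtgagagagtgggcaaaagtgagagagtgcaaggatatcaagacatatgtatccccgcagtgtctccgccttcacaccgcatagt

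GTGTCC lay within 50 bp of the summit at 7 of the 10 histone peaks, against 5.87% of all 1244 IDR peaks. Those 7 were the 5 couple peaks and the peaks of his-37 and his-24, and the nearest copy lay between 0.5 and 32.5 bp from the summit. In all 7 the word was followed, after any 2 bases, by GCAG. This longer word was found at 10 of the 1244 IDR peaks in all (0.804%), so 3 lay outside the histone starts. It stood in 37 of 80 histone promoters, from 250 bp upstream to 50 bp downstream of the start, against 40 of all 19973 promoters. The 3 promoters outside the histone list belonged to fbxb-107, K07C5.13 and srh-75, and of these fbxb-107 was bound, by the IDR peak of rank 19 with a signal of 364. The short word GTGTCC was in 65 of 80 histone promoters (81.3%) against 6.25% of all promoters, and CCGAAT in 66.3% against 10.7%. The promoters of a divergent couple overlap, and 16 of 31 couples have an identical copy. These promoter counts therefore take the same sequence more than once. GTGTCC was common at histone starts with or without a peak: 14 of the 65 records with it were bound, and 1 of the 15 without it. The word was picked after the bound summits were seen, so that choice largely fixed this contrast. The 14 include his-15, whose peak lay 895 bp upstream and had no GTGTCC near its summit. Outside the histone list, 6.51% of the 1183 records with GTGTCC in the promoter were bound, against 6.41% of the 18710 without it. CCGAAT lay within 50 bp of 4 of the 10 histone summits, against 3.38% of all IDR summits. CACCGC and CTCCGCC, also picked after the sequences were seen, lay at 1 and 3 of the 10, against 6.67% and 2.81%. Both strands were searched throughout, and the long word contains the short one.

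Words listed for CEH-39 summits in general were counted at the same 10 summits. ATCGAT, the palindromic core that ONECUT proteins are known to bind, lay within 50 bp of 0 of 10 histone summits against 17.4% of all IDR summits. GAGAGA lay at 1 of 10 histone summits against 25.3% of all, GACGCA at 1 against 17.9%, GAGCGC at 0 against 17.1% and ACGCGC at 0 against 16.4%. ACGCAG lay at 2 of 10 histone summits against 19.5% of all, and AGAGAC at 2 of 10 against 20.7%, shares near the background. With 10 peaks, each of these counts differs from the background by at most a few peaks. Within 100 bp of the summit ATCGAT was found at 2 of the 10, but the share over all IDR summits was not counted at that distance. In the promoters ATCGAT was in 5% of histone records against 12.3% of all, whereas TATAAA, the TATA box sequence, was in 63.8% against 38.0%. Here too, sequence shared within or between couples was counted more than once.

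Across the genome the longer word had 99 matches. In the windows of histone starts it had 23, of which 13 lay in unique sequence, and 9 of those 13 had an IDR summit within 100 bp. Of the 10 matches in repeated sequence at histone starts, 0 had a summit in the IDR or the relaxed pooled list. Elsewhere in the genome 70 matches lay in unique sequence, and 5 of those 70 had an IDR summit within 100 bp. These shares were 69.2% at histone starts and 7.14% elsewhere. They count matches and not peaks, and matches can share a peak: the longer word lay within 50 bp of the summit at 7 of the 10 histone peaks. Because the word was picked from the bound histone summits, the share at histone starts was largely fixed by that choice, and the shares were not compared by a test.

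Of the histone genes outside divergent couples, 1 core gene, 1 linker gene and 1 H3.3 gene had a peak. The gene his-37 (WBGene00001911, H4) stands at the edge of a 3-gene cluster beside the couple his-35/his-41, which had no IDR summit between its starts. Its peak at chrV:9546940-9547069 had a signal of 185 and ranked 176, 195 in replicate 1 (signal 141) and 161 in replicate 2 (signal 44.2), with the summit 102 bp upstream of the start. The linker gene his-24 (WBGene00001898), which encodes an H1, had a peak at chrX:14489895-14490244 with a signal of 119 and a rank of 497. Its summit lay 24 bp upstream of the start, and it ranked 651 in replicate 1 (signal 87.5) and 594 in replicate 2 (signal 28.1). The gene his-72 (WBGene00001946) encodes an H3.3, and its peak at chrIII:12368339-12368688 had a signal of 103 and a rank of 694. That peak ranked 900 in replicate 1 (signal 74.5) and 532 in replicate 2 (signal 29.2), and its summit lay inside the gene, 350 bp upstream of an inner start.

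The weakest 2 of the 10 peaks were bound only by the width of the window. The peak at chrII:13817301-13817650 had a signal of 92.7 and a rank of 873. It was counted for his-15 (H2B) at 895 bp upstream, but the nearest start was that of his-16, and the summit lay beyond the end of his-16. The peak at chrV:16041399-16041748 had a signal of 81.7 and a rank of 1109. It was counted for his-1 (H4) at 946 bp upstream, while it lay past the end of his-2, 709 bp from the start of that gene. In replicate 1 they ranked 777 and 750, with signals of 80.3 and 81.5. In replicate 2 they ranked 1633 and 9104, with signals of 20.6 and 13.0, and their −log10 q-values there were 0.585 and 0.0680, so they did not pass a q-value of 0.05 in that replicate. The other 8 histone peaks passed it in both replicates. With a window of 500 bp upstream, 13 of 80 histone records were bound, against 5.34% of all records.

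**Figure D1:**
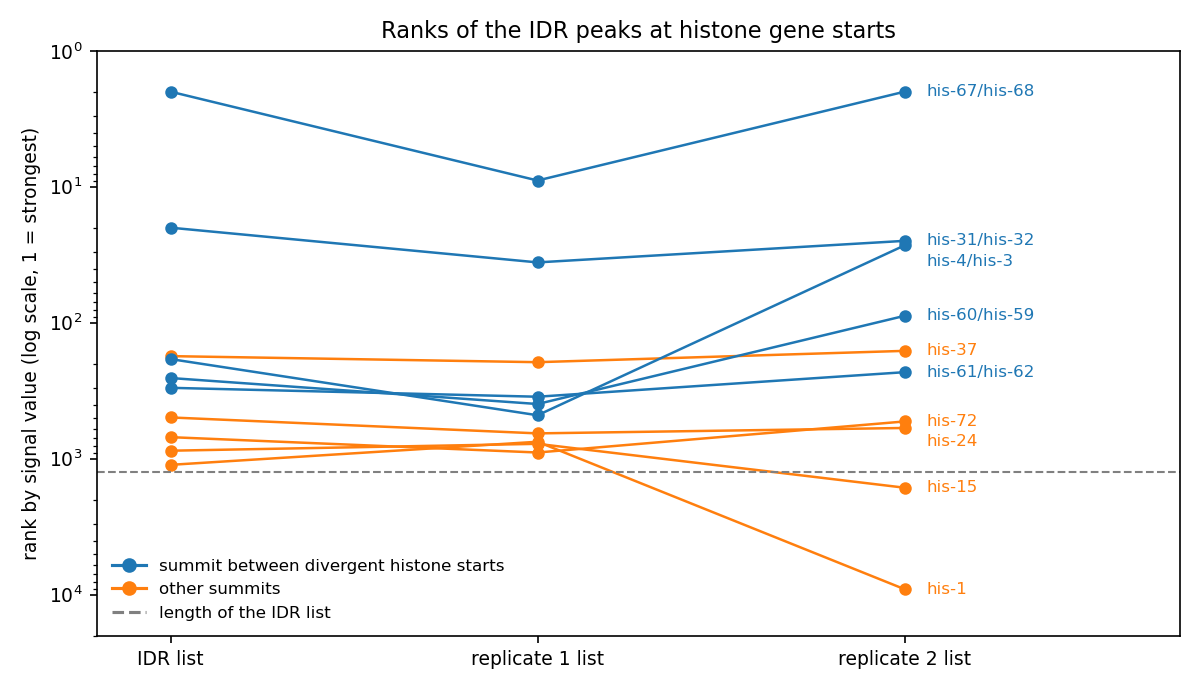
Rank by signal value (log scale, 1 = strongest) of the 10 IDR peaks at histone starts in the IDR list and in the list of each replicate. Blue lines are peaks between divergent histone starts and orange lines the others. The 5 couple peaks stay above the dashed line at 1244 in each list, while the peaks counted for his-15 and his-1 fall to ranks 1633 and 9104 in replicate 2.

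The median signal over the 10 histone peaks was 155, against 108 over all 1244 IDR peaks, and the range was 81.7 to 516. The median was 184 over the 5 couple peaks. In the replicates' own lists the 10 peaks had median ranks of 438 in replicate 1 and 196 in replicate 2. Over the 15 bound records the summit lay a median of 168 bp upstream of the start. The start was the first base of the coding sequence in 68 of the 80 records, so the true transcript starts, and hence these distances, are known only to within the unannotated leader.

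Arrangement in the genome was set beside these peaks. The 80 records formed 27 loci: 11 clusters with 61 records, 2 isolated divergent pairs with 4, the neighbours his-69 and his-70 with 2, and 13 single genes. In clusters 11 of 61 records were bound, at 5 of the 11 clusters and on 7 distinct peaks. In the isolated divergent pairs 2 of 4 records were bound, both at his-67/his-68, and his-38/his-40 on X was not. Among single genes 2 of 13 were bound, and of his-69 and his-70 0 of 2. Among the 16 variant and linker records 2 were bound, against 13 of the 64 other core records. Over all protein-coding records the share bound was 6.46%. The shares by arrangement were 18.0% in clusters and 15.4% among single genes, and no difference between arrangements was tested. Repeated sequence was spread unevenly over these groups. Over 50% of the 36-base words in the window of a start were repeated in 40 of 61 cluster records and 0 of 13 single genes. All 40 were core records, and 1 of the 40 was bound. Neither clusters and single genes nor core and variant or linker records were thus compared at like shares of repeated sequence.

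**Figure D2:**
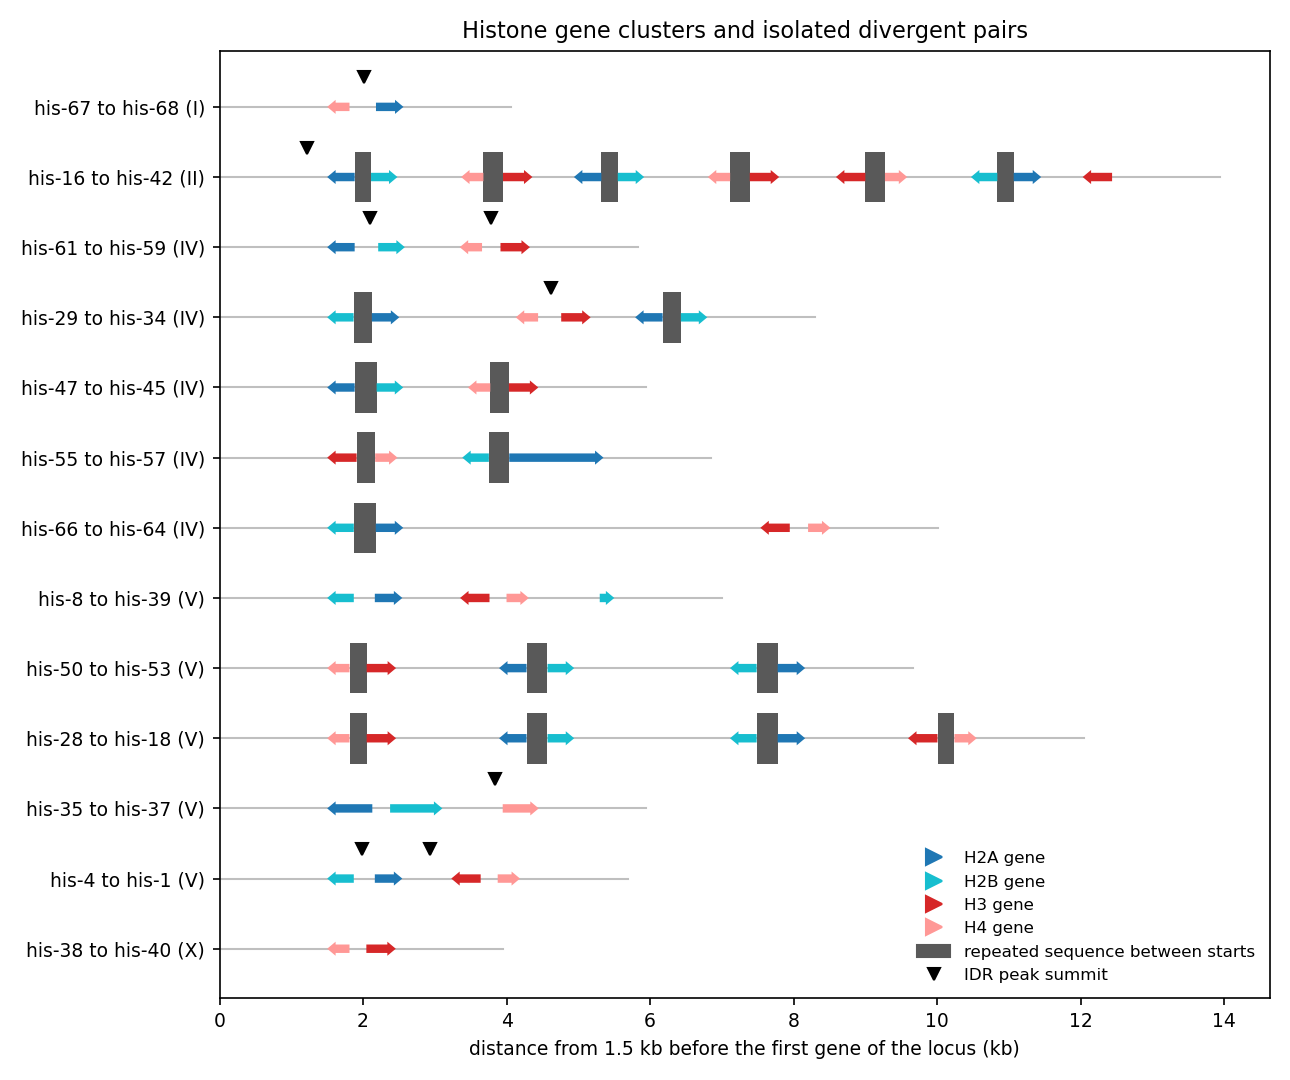
The 11 clusters and 2 isolated divergent pairs drawn to scale (kb), with each gene as an arrow in its direction and coloured by histone type. Grey blocks mark facing starts with over 50% repeated words between them, and black triangles mark IDR peak summits. All 5 summits between facing starts sit where there is no grey block.

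The peaks between facing starts all lay at couples of mostly unique sequence. Of the 31 divergent couples, 20 had more than 50% of their 36-base words present elsewhere in the genome (83.9 to 100%), and 0 of these 20 had an IDR summit between the starts (interval 0 to 16.8%). None of those 20 was overlapped by any peak in the pooled, replicate 1 or replicate 2 relaxed lists either. The other 11 couples had 0 to 20.6% repeated words, and 5 of these 11 had an IDR summit, or 45.5% (interval 16.7 to 76.6%). In the relaxed pooled list 9 of the 11 had a summit between the starts, as did 9 in replicate 1 and 7 in replicate 2. Among the 1710 divergent couples of protein-coding genes outside the histone list, 15.3% had an IDR summit between the starts and 44.9% a relaxed pooled summit. Of those, 303 had starts spaced like the histone couples (227 to 368 bp). An IDR summit lay at 19.1% of these 303, a share inside the interval of the 11 histone couples, and a relaxed summit at 55.1%. The couples outside the list were not split by repeated sequence. Over all 31 histone couples, 5 had an IDR summit, or 16.1% (interval 5.45 to 33.7%), a share near that of the other couples. A relaxed pooled summit lay at 29.0% of the 31, a lower share than in the other couples. The sources do not state how the authors treated reads that map to several places, so for the 20 repeated couples absence of binding and absence of placed reads cannot be told apart.

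**Figure D3:**
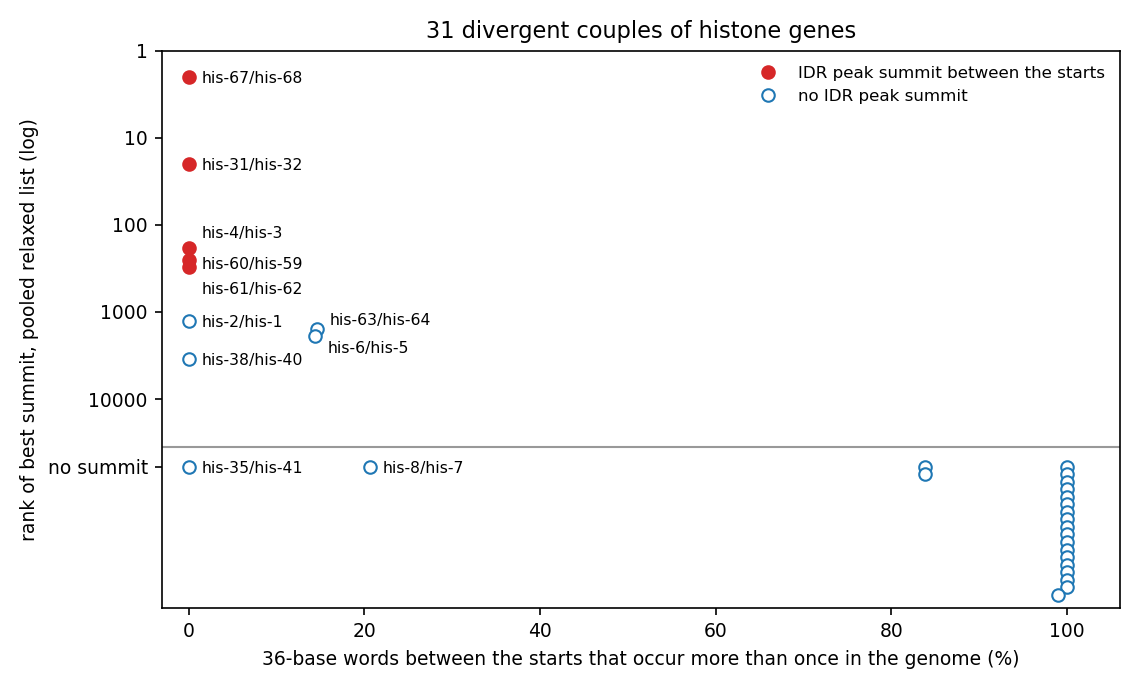
Best rank in the pooled relaxed list (log axis, strongest at the top) of each of the 31 divergent histone couples against the share of 36-base words between the starts that occur more than once in the genome. Red points have an IDR summit between the starts, and points below the grey line have no summit in the list, stacked for legibility. All 20 couples above 50% lie below the line, while 9 of the other 11 have a rank.

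Many of the repeated couples were exact copies of each other. The sequence between the starts was identical to that of another couple in 16 of 31 couples, which fell into 6 sets. The sequence printed above for his-16/his-15 (H2A and H2B) is the same in his-12/his-11 and in his-44/his-43. The largest set held 4 couples of H2A and H2B on V, his-51/his-52, his-54/his-53, his-21/his-22 and his-20/his-19. Of the 20 repeated couples 10 carried the longer word without a mismatch and the other 10 with 1 mismatch, and none had a peak in any list. Among the couples of mostly unique sequence, 5 of 7 without a mismatch had an IDR summit. The 1 such couple with 1 mismatch, his-2/his-1, had none. How the word relates to the missing peaks was not tested.

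The contrast was also counted over all 80 records. Over 50% of the words in the window of a start were repeated in 40 of 80 histone records, all 40 of them in clusters, against 573 of the 19893 other protein-coding records (2.88%). In that class 1 of 40 histone records was bound, his-15, against 4 of 573 other records (0.698%). In the class with at most 50% repeated words 14 of 40 histone records had a peak, which is 35% (interval 20.6 to 51.7%), against 1272 of 19320 other records (6.58%). These 14 records rested on 9 distinct peaks, so the interval is too narrow. A relaxed pooled summit was present at 32 of those 40 histone records, against 44.8% of the other records in the class. Bound histone records had a median of 12.7% repeated words, against 79.5% in unbound ones.

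**Figure D4:**
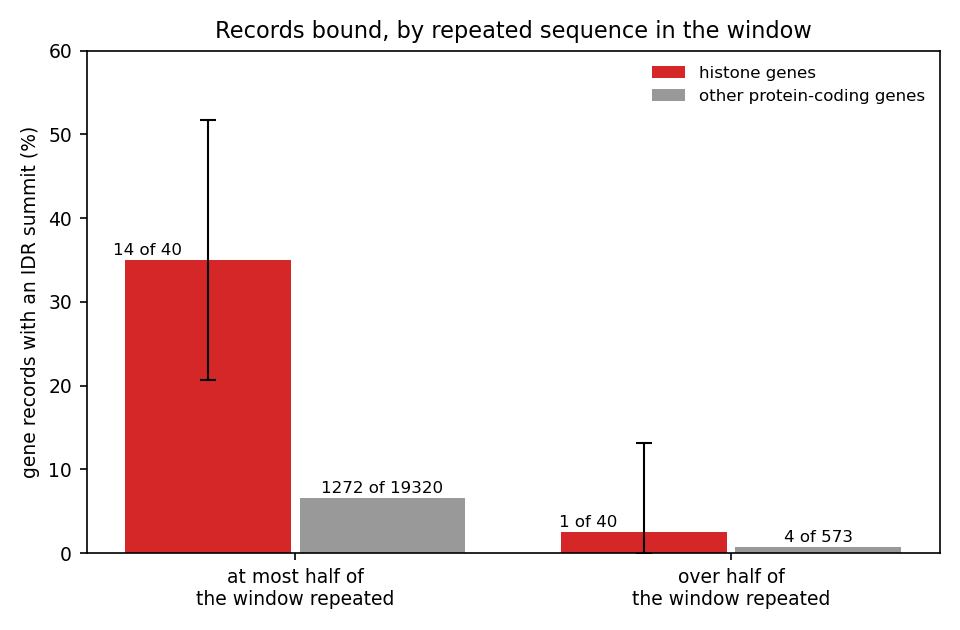
Share of gene records (%) bound by an IDR peak, for histone genes (red) and other protein-coding genes (grey), split by whether over 50% of the window's 36-base words occur elsewhere. Error bars are exact 95% binomial intervals for the histone genes. Histone records reach 35% in mostly unique sequence, against 6.58% of other genes, and 2.5% in mostly repeated sequence. The interval at 35% is too narrow, because it treats records that share a peak as independent.

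Of the 6 couples of mostly unique sequence with no IDR summit between the starts, 4 had a weaker summit in the relaxed pooled list. The couple his-2/his-1 (H3 and H4) had a pooled summit of rank 1269 and a signal of 75.6, just below the lowest IDR signal of 76.5, with a rank of 1242 in replicate 1. In replicate 2 it had no summit between the starts, although a peak of rank 6292 reached into that stretch. The couple his-63/his-64 (H3 and H4) ranked 1565 in the pooled list, 1512 in replicate 1 and 9647 in replicate 2. The couple his-6/his-5 (H3 and H4) ranked 1894, 1630 and 15166 in the same lists. The isolated pair his-38/his-40 (H3 and H4) ranked 3457 in the pooled list and 2694 in replicate 1, with no summit in replicate 2. The couples his-8/his-7 and his-35/his-41 (H2A and H2B) had no summit between the starts in these 3 lists. In all 4 couples with a summit the rank in replicate 2 was missing or far below that in replicate 1.

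Among these 11 couples of mostly unique sequence, 6 of 6 couples of H3 and H4 had a relaxed pooled summit and 2 of 6 an IDR summit. Of the couples of H2A and H2B, 2 of 4 had a relaxed summit and the same count an IDR summit. The 7 couples of the 11 with the longer word all had a relaxed summit, and 5 of them an IDR summit. Of the 4 without it, 2 had a relaxed summit and 0 an IDR summit. Counting positions from 1 at the first base of GTGTCC, the closest match in his-2/his-1 differed by G3A, in his-38/his-40 by C5T and C6T, and in his-8/his-7 by G1A and G9A. The closest match in his-35/his-41 had 3 mismatches. Since the word was picked from the bound sequences, these counts describe the couples and were not tested.

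The 6 clusters without a bound record are described by the best summit at any of their starts. The cluster from his-50 to his-53, with 6 of 6 records over 50% repeated, had no summit at a start in any list. The clusters his-28 to his-18 and his-47 to his-45, in which all 8 and all 4 records were over 50% repeated, had best pooled ranks of 2471 and 6199, and neither had a summit in replicate 2. The cluster his-55 to his-57 had a best pooled rank of 3530, his-66 to his-64 of 1565, and his-8 to his-39 of 1894. The cluster his-16 to his-42 on II, the longest at 13 records, had the remote peak counted for his-15 as its only IDR peak.

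Among the linker and variant histone genes 2 of 16 were bound, or 12.5%, beside 6.46% of all protein-coding records, and the other 14 are given by their ranks in the relaxed lists. H1 genes compact chromatin between nucleosomes. Of the H1 genes other than his-24, hil-2 had a relaxed pooled summit of rank 1743, with rank 1383 in replicate 1 and none in replicate 2. The gene hil-3 ranked 2447 in the pooled list and 3407 in replicate 1 but 490 in replicate 2, where it was among the strongest 1244. The genes hil-7, hil-6, hil-1, hil-5 and hil-8 had pooled ranks of 3975, 7416, 11111, 20519 and 25976, and hil-4 had no summit in any list. An IDR peak containing the longer word, of rank 406 and signal 130, lay 1855 bp upstream of hil-3, outside its window.

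Of the H3 variants other than his-72, his-71 had a summit only in replicate 2, at rank 18787, and his-74 had a pooled rank of 17842. The genes his-69, his-70 and his-73 had no summit in the pooled list or in either replicate's list. The gene his-35 (H2A) had a pooled rank of 7055 and none in replicate 1, but 869 in replicate 2. None of the linker and variant genes was over 50% repeated.

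Genes that supply, escort or exchange histones were listed with earlier results of this map known, and 3 of 15 had an IDR peak, beside 6.46% of all protein-coding records. The gene htz-1, which encodes the variant H2A.Z, had a peak of signal 216 and rank 126 with the summit 312 bp upstream, and it ranked 119 in replicate 1 and 202 in replicate 2. The gene lin-53, which encodes an RbAp46/48-type histone-binding protein, had a peak of signal 245 and rank 87 at 233 bp upstream, and it ranked 68 in replicate 1 and 563 in replicate 2. The gene nap-1, which encodes a nucleosome assembly protein, had a peak of signal 114 and rank 552 at 187 bp upstream, and it ranked 480 in replicate 1 and 1581 in replicate 2. By the strongest 1244 peaks, 3 of 15 were bound in replicate 1 and 5 of 15 in replicate 2, where hcp-3 (the centromeric H3), chaf-2 (a chromatin assembly factor subunit) and hmg-4 (a FACT subunit) were added and nap-1 was not among them. The gene cdl-1, which encodes the stem-loop binding protein of histone mRNA, had no IDR peak and a pooled rank of 2190. Of the 12 unbound genes of this list, rba-1 had no summit in any list and the others had best pooled ranks of 1531 to 10972.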

How the data were processed

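Peak lists of the 2 replicates of the eGFP-CEH-39 ChIP and of their pool were used as deposited on ce11, 4 lists in all. Per the deposited description files, each relaxed list was called with a control, and the IDR list comes from the relaxed lists. Aligner, caller and handling of multiply mapped reads are not given in the sources. The authors' signal value ranks the peaks, and the deposited −log10 q-value was compared with a q-value of 0.05. The relaxed lists held 30000 (pooled), 30000 (replicate 1) and 27014 (replicate 2) peaks, of which 2698, 3958 and 790 passed that threshold. Starts came from Ensembl release 115. A word counted as repeated when its 36 bases occur more than once in the genome on either strand. A record's share covers the window from 1000 bp upstream to 200 bp downstream. Every bound histone record, the variants and the clusters were named. The members, lists and words were chosen with earlier results of these data known. No test over the list was made, and counts stand beside those over all records. Functions were tested on simulated data. Python 3.11.15, numpy 2.4.6, scipy 1.17.1 and matplotlib 3.10.9 were used.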

Additional observations from a re-analysis of the deposited data

How the results depend on the processing

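Of 151 recomputed values of 28 results, 123 stayed close to the reported value, meaning within 1.5 times for counts, and 28 moved. Taking 2 times as many pooled peaks gave 24 histone records bound, 20 distinct peaks, 18 cluster records, 4 single genes, 3 H1 and 7 H3 records, 4 variants and linkers, and 9 supply genes. Giving each peak to its nearest start gave 8 histone records bound, 5 in clusters, 1 in an isolated pair, 1 H2A and 2 H4 records. The stronger 50% of IDR peaks left 1 single gene and 1 variant or linker. A window from 2000 bp upstream gave 2 H1, 5 H2B and 4 variant and linker records. The share over all protein-coding records was not counted for 2 times as many peaks, for the stronger 50% or for this window. More peaks or a wider window can raise the count of any genes, so these counts have no background to be read against. Leaving out 1 replicate gave 1 to 2 H1 records, 2 to 4 variants and linkers and 3 to 5 supply genes, the higher values without replicate 1. Within 100 bp of the summit ATCGAT was at 2 histone peaks, ATTGAT at 1, TATAAA at 3 and GAGAGA at 3. Within 25 bp ACGCAG was at 1, AGAGAC at 1 and GTGTCC at 4, the last added after the data were seen. Shares over all IDR summits were not counted at these 2 distances. Words of 50 or 100 bases left the counts of repeated records and couples within 1.5 times. No paired analysis was possible because the series holds 1 group.

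The depth of each replicate is unknown. Signals of the replicates were compared by rank only. Counts of 10 peaks bear only coarse comparison, and records sharing a peak are not independent. Peaks in repeated sequence depend on how reads were placed.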
